A study of Mus musculus with 6 samples.

Results

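The genes described here are 4 adenylyl cyclases (Adcy6, Adcy7, Adcy3 and Adcy9), which make cyclic AMP (cAMP), and 5 phosphodiesterases (Pde2a, Pde3b, Pde4b, Pde4d and Pde7a), which break it down. They were followed in splenic CD8+ T cells (CD8-TC) of mice with and without the Runt-domain transcription factor Runx3. All 9 were found, out of 19938 genes that had a row with a single gene symbol on the array, and 8 of them were among the 10021 genes bright enough to be tested. Where a gene had several rows, the one brightest on average over the 6 arrays stood for it, which among these genes concerned only Pde4d. Rows were thus chosen by mean level, and the 9 names were selected with the KO minus WT differences of these arrays already known, so their differences are a description and a count over them supports nothing by itself. The p-values are those of the fit over all tested genes, adjusted over all of them.

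The 6 samples were 3 WT (Runx3 +/+) and 3 Runx3 -/- CD8-TC cultures, described as biological repeats, from male ICR mice aged 6 weeks. Whether each came from a single animal is not stated, so p-values measure the spread between these samples. Both genotypes were activated for 2 days on plates coated with anti-CD3 together with soluble anti-CD28, and were then grown for 4 days with human IL-2 at 100 units per ml. WT cells were purified on anti-CD8 beads. Runx3 -/- cells were in addition sorted by flow cytometry, before culture to take out CD11c+ dendritic cells and after culture to take out CD4+CD8- T cells, so that the added sorting cannot be told apart from genotype. Every RNA had an Affymetrix mouse gene ST 1.0 array of its own, and the values are log2 expression after robust multichip averaging (RMA). Which exons of Runx3 were disrupted was not stated.

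Cyclic AMP is a small signalling molecule made from ATP at the membrane. Receptors coupled to the stimulatory G protein Gs, among them those for prostaglandins, adenosine and some neuropeptides, switch adenylyl cyclases on, and those coupled to Gi switch them off. In T cells cAMP activates protein kinase A, which dampens signalling from the T cell receptor (TCR) close to the membrane and also phosphorylates CREB-family transcription factors. Phosphodiesterases end the signal, and the PDE3, PDE4 and PDE7 enzymes are the ones best known for this in T cells.

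Several arrays call for care. The Runx3 transcript itself was not lower in the samples labelled Runx3 -/-, with 8.77, 8.26 and 9.16 in WT1, WT2 and WT3 and 8.91, 9.11 and 9.27 in KO1, KO2 and KO3. These samples are therefore called KO-labelled, and directions follow the labels. WT1, labelled male, had the inactive X chromosome RNA Xist at 10.6, against 3.31 to 3.40 on the other arrays, and the Y-linked Eif2s3y at 3.93, against 9.24 to 9.39. In KO2, S phase and G2/M genes lay 1.36 and 1.53 below their mean over the arrays (deviations of -1.36 and -1.53). T cell markers were bright on every array, with mean levels over the 8 genes of 10.3 to 10.7 in WT and 10.7 to 10.9 in KO-labelled arrays. Of the 8 differences 5 were above 0 and 3 below. Cd5, Cd2 and Cd28 were higher without overlap, as were 11.6% of all tested genes. Their differences were 1.12, 0.56 and 0.54 (adjusted p = 0.216, 0.197 and 0.324 by limma). Cd5 alone reached 1.5-fold with p under 0.05 without adjustment, as did 3.97% of all tested genes as higher. All 6 dendritic cell markers and all 6 monocyte and macrophage markers stayed below 4.26, the median of the whole table, on every array. Of 6 NK cell markers 4 did so too, and the mean over the list was 3.78 to 4.18 in WT and 3.56 to 3.69 in KO-labelled arrays. Klrb1c, the NK1.1 receptor gene, stood at 4.34, 5.66 and 5.94 in WT and at 3.74, 3.76 and 3.77 in KO-labelled arrays, without overlap and with the latter all below the table median. Of 5 B cell markers with a row, 4 stayed below it, and the mean over the list was 3.82 to 4.00 and 3.73 to 3.96. The remaining marker, Cd79b of the B cell receptor, was lower in every KO-labelled array than in every WT array, with a difference of -0.93 (adjusted p = 0.148 by limma) that passed the study's threshold of at least 1.5-fold and p under 0.05 without adjustment. The CD4 T cell markers Cd4, Zbtb7b and Cd40lg had a mean of 4.75 to 5.28 in WT and of 5.36 to 5.64 in KO-labelled arrays. Cd40lg lay below the table median throughout. Cd4 was higher by 0.95 without overlap (adjusted p = 0.250 by limma), and Zbtb7b by 0.64 with overlap (adjusted p = 0.342 by limma). Both passed the study's threshold, as did 3.97% of all tested genes as higher. The part of these differences between cultures in the values below was not tested, and fewer expressing cells cannot be told apart from less RNA per cell.

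Promoter sequence of members is shown because the disrupted gene encodes a DNA-binding factor. The variants of the canonical RUNX motif, namely TGTGGT and then TGTGGC, as well as TGCGGT and lastly TGCGGC, were searched on both strands in the RefSeq windows from 250 bases before to 50 bases after a gene's start (GRCm38.p6). Windows were at hand for 6 of the 9 members (Adcy7, Adcy3, Adcy9, Pde2a, Pde4b and Pde4d), 16 windows in all, as a gene can have several starts. At least 1 of the 4 variants lay in 9 of these windows (56.2%) and in 45.2% of all 32851 windows of the same length. Among the 9, 2 overlapping windows of Pde2a shared the same TGTGGT on the minus strand, which was counted in both. TGTGGT by itself lay in 16.8% of all windows and TGTGGC in 18.9%. The palindromic cAMP response element TGACGTCA lay in 1.79% of all windows and in 0 of the 16. Below are a window of Pde4b, the member with a window that passed the study's threshold, and windows of Adcy3 and Pde2a, the members with a window whose means differed least between the groups. Of several windows of a gene, one with RUNX letters was shown. Capitals mark the RUNX letters on either strand, and no matches overlapped. The first is chr4:102587308-102587607 (plus strand), the next chr12:4133903-4134202 (plus strand) and the last chr7:101450766-101451065 (plus strand).
Pde4b: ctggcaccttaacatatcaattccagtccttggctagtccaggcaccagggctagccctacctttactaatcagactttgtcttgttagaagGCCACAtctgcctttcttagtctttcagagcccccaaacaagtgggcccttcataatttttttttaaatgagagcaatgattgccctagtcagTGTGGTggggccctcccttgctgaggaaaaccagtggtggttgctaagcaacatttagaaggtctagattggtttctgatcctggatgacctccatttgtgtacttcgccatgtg
Adcy3: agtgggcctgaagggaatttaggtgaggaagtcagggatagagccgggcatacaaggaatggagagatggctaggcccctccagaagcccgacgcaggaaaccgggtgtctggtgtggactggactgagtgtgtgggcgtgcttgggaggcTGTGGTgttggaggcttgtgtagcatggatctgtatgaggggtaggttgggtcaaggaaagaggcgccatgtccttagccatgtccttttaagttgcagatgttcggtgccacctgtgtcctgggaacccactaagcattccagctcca
Pde2a: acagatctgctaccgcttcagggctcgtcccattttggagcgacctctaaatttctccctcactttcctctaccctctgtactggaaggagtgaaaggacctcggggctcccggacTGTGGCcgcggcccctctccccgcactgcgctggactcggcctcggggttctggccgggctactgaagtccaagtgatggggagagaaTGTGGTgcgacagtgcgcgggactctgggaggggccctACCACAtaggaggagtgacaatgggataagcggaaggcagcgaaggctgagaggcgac
The Pde4b window held TGTGGC on the minus strand and TGTGGT on the plus strand, their leftmost bases in the printed window 158 and 65 bases before the start. The Adcy3 window held TGTGGT 99 bases before the start. The Pde2a window held 3 matches, TGTGGC at 134 bases and TGTGGT at 46 and 8 bases before the start. None of the letters lay in 2 of the 4 windows of Pde4b and in 3 of the 5 windows of Pde2a, while both windows of Adcy3 held 1 match.

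Among the cyclases Adcy6 stood apart. Adcy6 encodes a membrane cyclase that is inhibited by calcium and by Gi. Its level was 4.15, 4.06 and 4.78 in WT1, WT2 and WT3 and 6.22, 7.18 and 6.44 in KO1, KO2 and KO3. Every KO-labelled array lay above every WT array, and WT1 and WT2 lay below the table median, where RMA compresses differences. The mean went from 4.33 ± 0.39 (SD, n = 3) to 6.61 ± 0.50 (SD, n = 3). The difference of 2.29 on the log2 scale (SE 0.30, 95% interval 1.57 to 3.00, 4.88-fold) had an adjusted p of 0.0329 by limma. With any array but KO1 left out the difference lay between 2.00 (without KO2) and 2.51 (without WT3), but the call was lost, with adjusted p from 0.0616 to 0.112 by limma.

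Adcy7, a cyclase that is stimulated by the beta-gamma subunits of G proteins and is prominent in blood cells, was well above the table median on all arrays. It stood at 8.95, 8.30 and 9.42 in WT and at 8.84, 9.65 and 9.48 in KO-labelled arrays. The groups overlapped, as KO1 lay below WT1 and WT3. The log2 difference was 0.43 (SE 0.33, 95% interval -0.35 to 1.21, adjusted p = 0.573 by limma). WT2 was the lowest array, and without it the difference was 0.14.

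Adcy3, known best as the cyclase of odour sensing, varied little. Its level was 5.64, 5.84 and 5.62 in WT and 5.73, 5.83 and 5.55 in KO-labelled arrays. The groups covered nearly the same range, and the difference of 0.0052 (SE 0.14, 95% interval -0.33 to 0.34) leaves room for a change of at most 0.34 in either direction at this level of confidence. Adcy9, a widely expressed cyclase, was not tested. It lay at 3.71, 3.71 and 3.86 in WT and at 3.86, 3.88 and 4.06 in KO-labelled arrays, below the table median of 4.26 throughout.

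**Figure D1:**
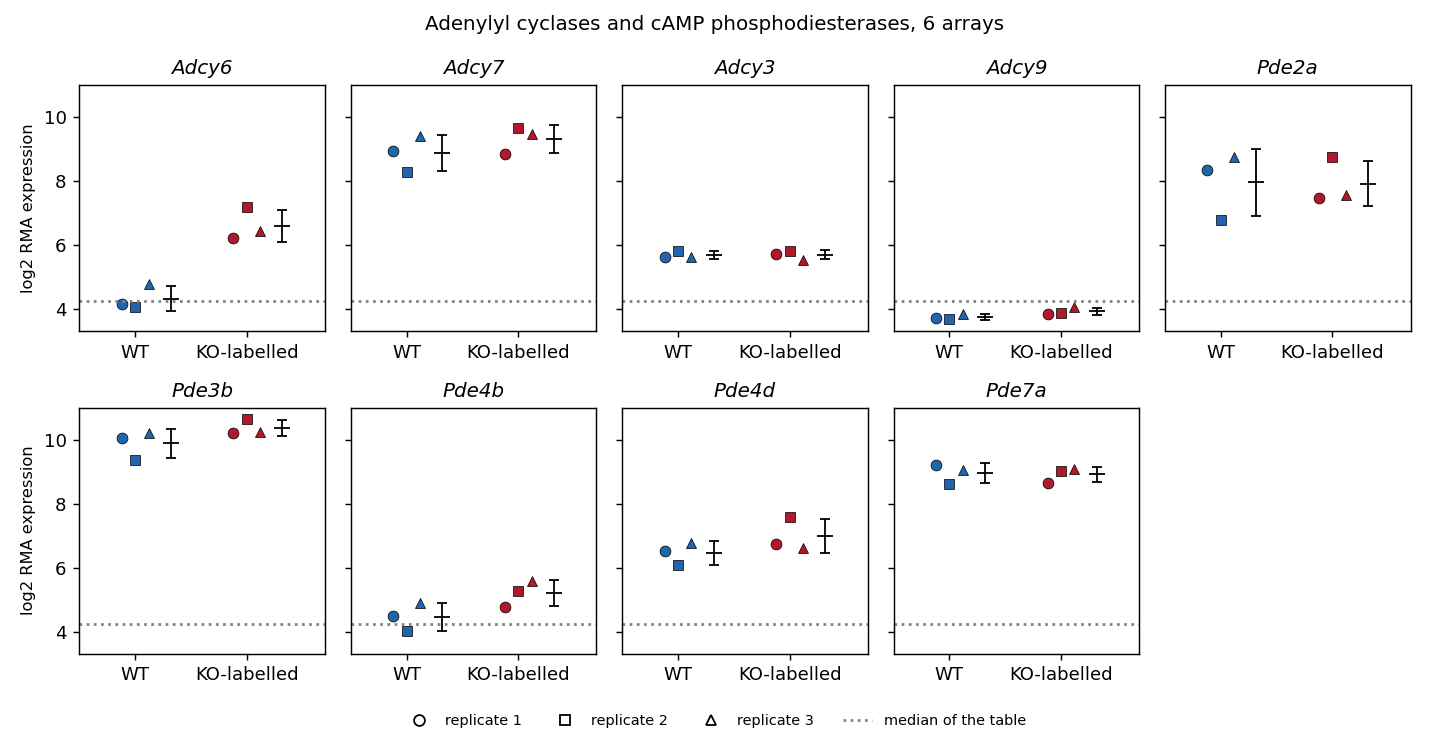
Log2 RMA expression (vertical axis) of the 9 genes on each array, WT in blue and KO-labelled in red, with symbols for replicates, bars for mean ± SD (n = 3) and a dotted line at the table median of 4.26. Only in the Adcy6 panel do the groups not overlap among the 8 tested genes, with WT at most 4.78 and KO-labelled arrays at least 6.22; heights of different genes are not comparable, as each is read by its own probes.

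The phosphodiesterases showed smaller differences, and none of the 5 passed the adjusted threshold. Pde4b encodes a cAMP-specific enzyme that is induced when T cells are activated. It stood at 4.50, 4.03 and 4.90 in WT and at 4.79, 5.29 and 5.60 in KO-labelled arrays. KO2 and KO3 lay above all WT arrays, whereas KO1 lay below WT3. The log2 difference was 0.75 (SE 0.29, 95% interval 0.073 to 1.43, 1.68-fold). It passed the study's threshold, but had an adjusted p of 0.313 by limma. That call was lost without WT1, WT2, KO2 or KO3, with differences of 0.76, 0.53, 0.72 and 0.56, and without WT2 and KO2 together (0.50).

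Pde4d, a further cAMP-specific enzyme of the PDE4 family, was at 6.53, 6.08 and 6.79 in WT and at 6.74, 7.60 and 6.62 in KO-labelled arrays. KO2 alone lay above all WT arrays. The difference was 0.52 (SE 0.30, 95% interval -0.20 to 1.24, adjusted p = 0.477 by limma), and without KO2 it was 0.21. Another row of Pde4d gave a similar pattern, with 6.43, 5.81 and 6.76 in WT, 6.69, 7.35 and 6.62 in KO-labelled arrays and a difference of 0.55. The remaining row lay between 3.57 and 3.83, below the table median on every array.

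Pde3b encodes an enzyme of cAMP that cGMP inhibits and that insulin and cytokine signals activate through Akt. Its level was 10.1, 9.38 and 10.2 in WT and 10.2, 10.7 and 10.3 in KO-labelled arrays. The groups overlapped narrowly, with WT3 at 10.22 just above KO1 at 10.20. The difference was 0.48 (SE 0.25, 95% interval -0.12 to 1.08, adjusted p = 0.432 by limma), and without WT2 it was 0.23.

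Pde2a encodes an enzyme of both cyclic nucleotides that cGMP stimulates, and of the 8 tested members it varied most within the groups. It stood at 8.34, 6.79 and 8.77 in WT and at 7.47, 8.75 and 7.56 in KO-labelled arrays. Arrays of both groups lay at the top and in the middle of the range, and WT2 was lowest. The means were 7.96 ± 1.04 (SD, n = 3) and 7.93 ± 0.72 (SD, n = 3). The difference of -0.038 had a wide 95% interval of -1.37 to 1.30, so that a change of more than 2-fold in either direction could not be told from none. Pde7a, a cAMP-specific enzyme of T cells, was at 9.20, 8.63 and 9.07 in WT and at 8.66, 9.04 and 9.09 in KO-labelled arrays. The groups covered nearly the same range, and the difference was -0.038 (SE 0.20, 95% interval -0.52 to 0.45).

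Of the 8 tested members, 1 passed an adjusted p of 0.05, against 0.629% of all tested genes. At the study's threshold 2 passed, both higher, against 8.3% of all tested genes in either direction and 3.97% in that direction. The groups did not overlap in 1 of the 8, with KO-labelled arrays higher, against 22.4% of all tested genes in either direction and 11.6% in that direction. The difference was above 0 in 6 members and below 0 in 2, with a median of 0.46 beside -0.015 over all tested genes. Because the genes were picked with this comparison known, nothing is read from these shares.

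A pair of arrays, WT2 and KO2, held most of the extreme values of the members. WT2 was the lowest of the 6 arrays in 7 of the 8 tested members, all but Adcy3, and it was the lowest in 28% of all tested genes. KO2 was the highest array for Adcy6, Adcy7, Pde3b and Pde4d, 4 of 8, beside 18.7% of all tested genes. As the members were selected with their mostly positive differences known, a WT array at the bottom and a KO-labelled array at the top follow in part from that choice, and nothing is read from these counts. Relative to each gene's mean over the arrays, WT2 lay at -0.81 for Adcy7, -1.16 for Pde2a, -0.75 for Pde3b, -0.82 for Pde4b and -0.65 for Pde4d. KO2 lay at 0.55, 0.81, 0.53, 0.44 and 0.87 for the same genes. Over all tested genes the leading principal component, with 49.6% of the variance, set the same arrays farthest apart, WT2 at -40.3 and KO2 at 42.4. It also separated the groups, with WT1 at -12.6 and WT3 at -7.31 below 0 and KO1 at 0.838 and KO3 at 17.0 above it, so that it cannot be told apart from genotype. The cell-cycle lists also differed between them, with S phase genes at 0.56 in WT2 and -1.36 in KO2. KO2 was the lowest array in both lists, but WT2 was the highest in neither. KO1 stood at 0.68 for S phase genes, and KO1 and KO3 at 0.65 and 0.74 for G2/M genes, against 0.29 in WT2. The part of the cell-cycle lists in the differences was not tested. Without both arrays, a difference of 1.87 was left for Adcy6 (adjusted p = 0.0581 by limma), 0.50 for Pde4b, 0.086 for Pde3b, 0.022 for Pde4d, -0.027 for Adcy7 and -1.04 for Pde2a. The values of Adcy7, Pde3b and Pde4d thus lost most of their size, that of Adcy6 little, and Pde2a was then lower in KO-labelled arrays at the study's threshold but not at the adjusted one (adjusted p = 0.113 by limma). Without WT1, whose sex label its X- and Y-linked genes went against, the differences were 2.2 for Adcy6, 0.46 for Adcy7, -0.023 for Adcy3, 0.15 for Pde2a, 0.57 for Pde3b, 0.76 for Pde4b, 0.55 for Pde4d and 0.081 for Pde7a.

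**Figure D2:**
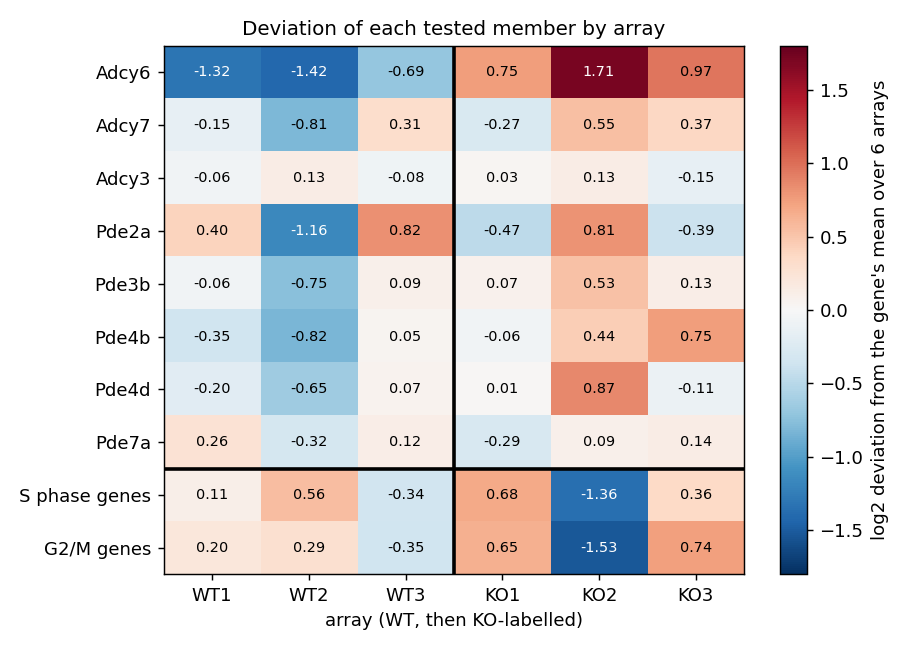
Deviation (log2, colour and printed value) of each tested member from its own mean over the 6 arrays, arrays in columns, with the mean deviation of 10 S phase and 9 G2/M genes in the bottom rows. The WT2 column is negative for all members but Adcy3, and KO2 is positive for every member and negative for both cell-cycle lists (-1.36 and -1.53).

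**Figure D3:**
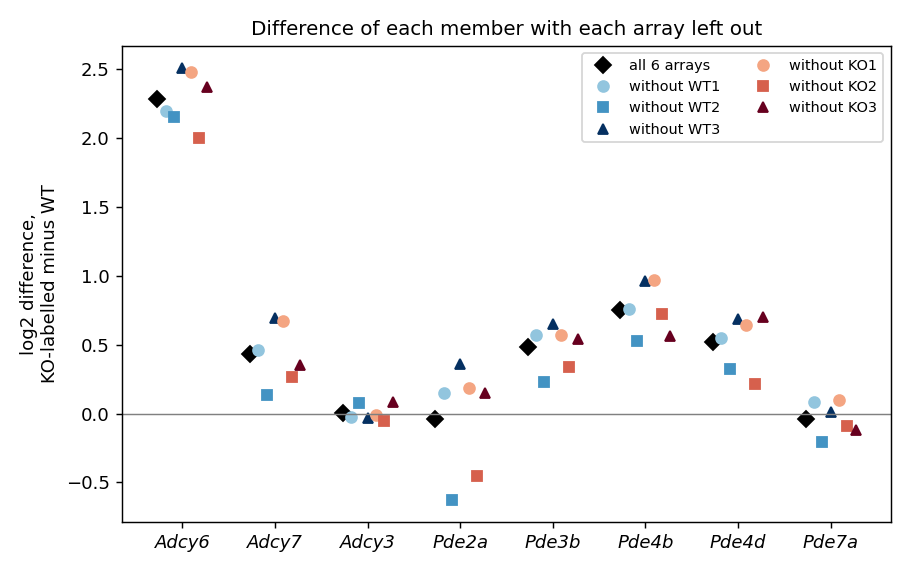
Log2 difference between KO-labelled and WT means (vertical axis) for each tested member, with all 6 arrays (diamonds) and with each array left out. Adcy6 stays between 2.00 and 2.51, whereas Pde2a ranges from -0.63 without WT2 to 0.36 without WT3.

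The 9 genes are part of larger families, of which all 10 adenylyl cyclases and all 16 phosphodiesterases that hydrolyse cAMP had a row. Of these 26 genes 11 were tested, and the other 15 lay between 2.90 and 4.06 on every array. Among the tested ones 3 passed the study's threshold, all higher, namely Adcy6, Pde4b and Pde8a, where 8.3% of all tested genes passed it and 3.97% as higher. Adcy6 and Pde4b were selected with this comparison known, so the count supports nothing. Pde8a, a cAMP-specific enzyme with very high affinity, is not among the 9. It stood at 4.92, 5.42 and 6.02 in WT and at 6.83, 6.76 and 6.25 in KO-labelled arrays, with no overlap. Its difference was 1.16 (SE 0.30, 95% interval 0.44 to 1.87, adjusted p = 0.184 by limma). Pde11a, an enzyme of both cyclic nucleotides, was at 6.50, 6.27 and 5.63 in WT and at 7.11, 6.80 and 6.11 in KO-labelled arrays, with a difference of 0.54 (adjusted p = 0.484 by limma). Pde1b, which calcium and calmodulin activate, differed by 0.27 (adjusted p = 0.706 by limma). Of 8 genes listed as cGMP-selective phosphodiesterases or their subunits, only Pde6d was tested (0.44, adjusted p = 0.403 by limma). Pde6d encodes a carrier of prenylated proteins, so none of the listed enzymes themselves was tested.

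**Figure D4:**
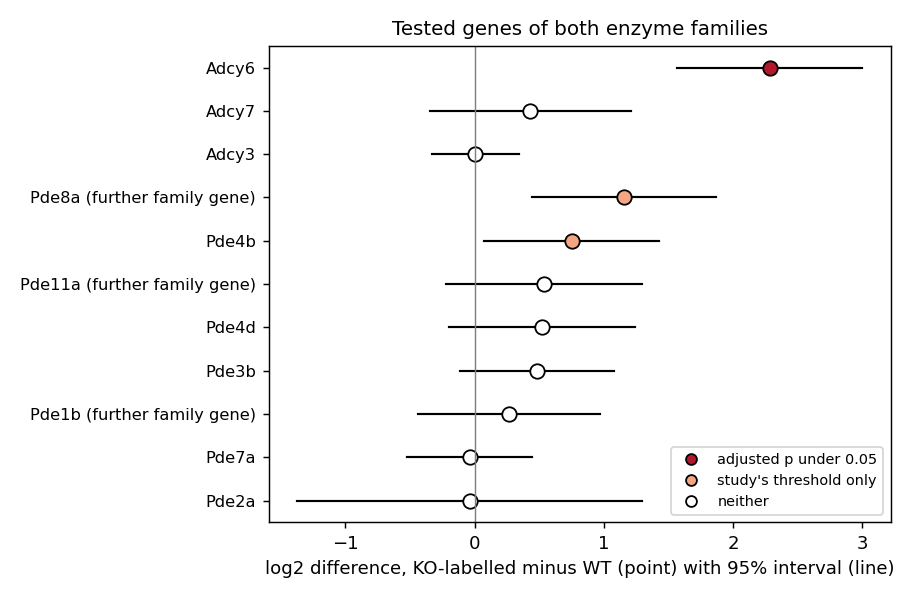
Log2 difference between KO-labelled and WT means (points, horizontal axis) with 95% intervals from limma (lines) for the 11 tested genes of both families. The intervals of Adcy6, Pde8a and Pde4b lie above 0, with points at 2.29, 1.16 and 0.75, and those of the other 8 genes include 0.

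Upstream of the cyclases, 7 of 16 listed Gs-coupled receptors were tested, and 2 passed the study's threshold, both higher (3.97% of all tested genes passed it as higher). Vipr1, a receptor for vasoactive intestinal peptide, went from 5.50, 4.996 and 5.46 in WT to 6.06, 7.19 and 6.80 in KO-labelled arrays. All KO-labelled arrays lay above WT, and the difference was 1.37 (SE 0.30, adjusted p = 0.126 by limma). Ptgir, the prostacyclin receptor, went from 3.64, 4.16 and 3.97 to 6.45, 4.81 and 5.64. It entered the test only through the KO-labelled arrays, since all WT arrays lay below the table median, so no size is given and its place in the count says little. The prostaglandin E2 receptors Ptger2 and Ptger4 differed by 0.27 and -0.067. Of the G protein subunits, the inhibitory Gnai2 and Gnai3 were tested, and Gnai3 had the smaller p (0.18, adjusted p = 0.552 by limma).

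Downstream, 5 of 9 protein kinase A genes were tested. Prkar2a, a regulatory subunit that holds the kinase inactive until cAMP binds, was at 6.05, 6.78 and 6.03 in WT and at 5.84, 4.89 and 5.54 in KO-labelled arrays. All KO-labelled arrays lay below WT, and the difference of -0.87 (SE 0.31, adjusted p = 0.292 by limma) passed the study's threshold only. Of all tested genes, 4.33% passed it as lower. The catalytic subunit Prkacb differed by 0.17 and the regulatory subunit Prkar1a by -0.085. All 8 listed CREB-family and coactivator genes were tested, and none passed either threshold, although Creb1 was under 0.05 without adjustment. As 8.3% of all tested genes passed the study's threshold, nothing is read from this count. Creb1 had the smallest p, with a difference of 0.40 (adjusted p = 0.348 by limma). Crem, which encodes cAMP-inducible repressors of CREB targets as well as activators, stood at 6.23, 5.53 and 6.42 in WT and at 5.89, 5.21 and 5.39 in KO-labelled arrays, a difference of -0.56 (adjusted p = 0.413 by limma). Abcc4, which exports cAMP, differed by 0.011 (SE 0.25). Over all 38 tested pathway genes outside the 2 enzyme families, 2 were higher and 1 was lower at the study's threshold, a share of 7.89% beside 8.3% of all tested genes, and the median difference was 0.15. Ptgir, which had to differ to be tested, is among the 2.

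**Figure D5:**
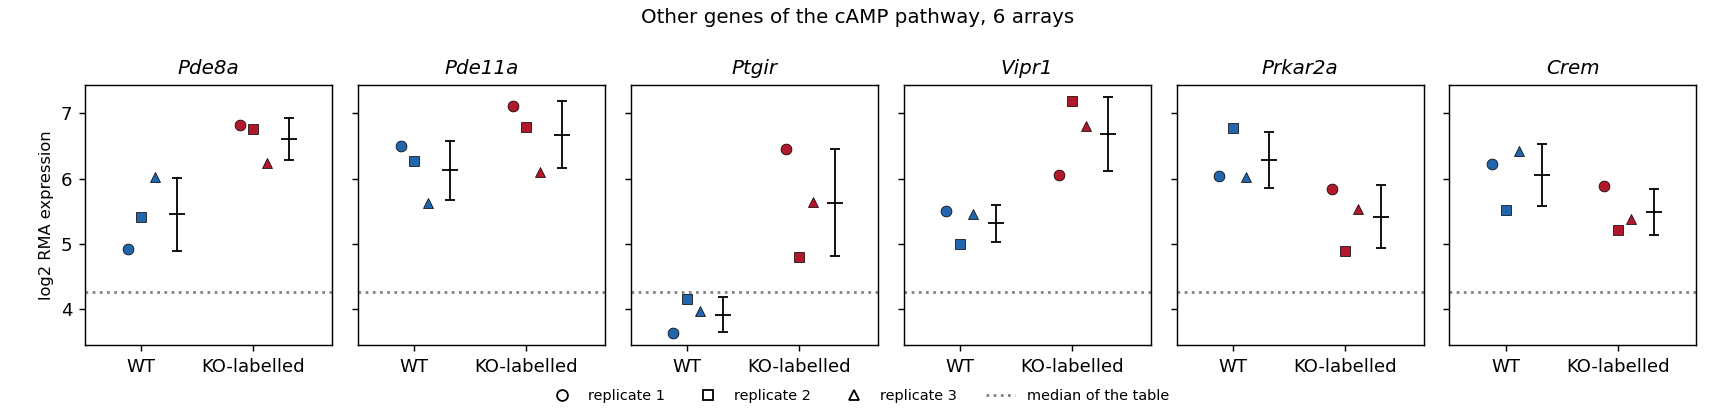
Log2 RMA expression (vertical axis) on each array of 2 further cAMP phosphodiesterases, 2 Gs-coupled receptors, a protein kinase A subunit and Crem, with symbols, bars (mean ± SD, n = 3) and dotted line (table median, 4.26) as in the plot of the 9 genes. KO-labelled arrays lie above WT for Pde8a, Ptgir and Vipr1 and below WT for Prkar2a, and the groups overlap for Pde11a and Crem; heights of different genes are not comparable.

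Genes most like 2 of the members were sought among the tested genes, with predicted genes, clone names and small RNAs left out. Those most like Adcy6 across the 6 arrays, by Pearson correlation, were Zfp281, Treml2, Ankrd55, Slc23a2 and Chd3. Their r was from 0.987 to 0.995 and their differences were 1.14, 0.55, 0.92, 0.55 and 1.58. Those most like Pde2a, which had the lowest difference among the members, were Kdm7a, Syne1, Ggps1, Olfr837 and Hipk1, with r of 0.985 to 0.989 and differences between -0.11 and 0.10. These correlations were taken over 6 arrays that also define the groups, and they were the highest among the genes left in.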

How the data were processed

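Total RNA of 6 cultures was measured on Affymetrix mouse gene ST 1.0 arrays. The authors normalised the scanner files by RMA with GC correction in Partek Genomics Suite (versions not given in the sources used here), and deposited log2 values without detection calls. A probe table gave 21789 of 35399 rows 1 symbol and 1621 rows several. The brightest row on average represented a gene, which was tested if its highest value reached the table median (4.26), a stand-in for background. Groups came from the labels.

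KO-labelled and WT arrays were compared with limma 3.58.1 in R 4.3.3 (lmFit and eBayes, two-sided, no covariate), with Benjamini-Hochberg adjustment over 10021 genes. Intervals are at 95%, and precision is limited by the 3 arrays a group. The fit was tested on simulated data. Members, lists and tests were chosen with earlier results of these data known. Named by rule were the members, family genes past the study's threshold, and up to 3 genes of each pathway list past it (otherwise that with the smallest p). So were the 5 genes most correlated with Adcy6 and Pde2a, with predicted genes, clone names and small RNAs left out. The remaining pathway genes in the text were picked with their values in view. Alternatives were no filter, quantile normalization, median centring, averaged rows, every bright row, the replicate block, other priors, an unmoderated model, array weights and arrays left out. Of the listed pathway genes, 8 had no row with a single symbol.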

Additional observations from a re-analysis of the deposited data

How the results depend on the processing

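Of the 8 tested members, 1 (Adcy6) passed the adjusted threshold with all arrays and 0 when dim rows were kept (adjusted p = 0.0793), with all bright rows tested (0.0609), with the replicate block (0.183), with the unmoderated linear model (0.275), and without WT2 and KO2 (0.0581), and 0 to 1 with each array left out (limma). Its adjusted p lay between 0.00373 and 0.275 over all 16 alternatives, and between 0.0471 and 0.112 with each array left out, while its difference stayed between 1.87 and 2.51. The study's threshold was passed by 2 members, by 1 with the unmoderated linear model, and by 1 to 2 with each array left out. Without WT2 and KO2 the 2 were Adcy6 and Pde2a, the latter lower, and Pde4b was lost. Over both families 3 genes passed it, and 2 to 3 did under every alternative, Adcy6 and Pde8a each time. The replicate block changed no other call of a member. Signs turned in Adcy3, Pde2a and Pde7a, whose differences were small. The sign also turned in Adcy7, with a difference of 0.43 over all arrays, but only without WT2 and KO2. Adcy3 went to -0.085 with quantile normalization, -0.064 with median centring and -0.039 with array weights, and ran from -0.057 to 0.081 with each array left out. Pde2a ran from -0.63 to 0.36, Pde7a from -0.21 to 0.096 and Adcy7 from 0.14 to 0.70 in the same way, and without WT2 and KO2 they stood at -1.04, -0.26 and -0.027. The cause was not tested. Over all genes, 63 passed the adjusted threshold, 36 with no filter, 1 with the replicate block, 0 with the unmoderated linear model (508 at the study's threshold), 547 with array weights, and 9 to 67 with each array left out (9 without KO3, 11 without WT3, 17 without WT1, 26 without WT2 and 27 without KO2). At the study's threshold 832 passed, 1707 with all bright rows and 1258 without KO1. The 398 higher and 434 lower genes at that threshold became 362 and 523 with quantile normalization, and 324 and 532 with median centring. Same-numbered arrays deviated from their group means with r of -0.13, -0.37 and -0.13, so the numbers were not taken to pair them.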

Other observations

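Of 11 listed A-kinase anchoring proteins, which hold protein kinase A at set places in the cell, 9 were tested. In limma 0 passed either threshold, while 2 (Akap12 and Akap8) were under 0.05 without adjustment. As 8.3% of all tested genes passed the study's threshold, nothing is read from the count of 0. Akap8, bright on all arrays, differed by 0.43 (SE 0.16, adjusted p = 0.312), and Akap13 by 0.57 (SE 0.25, adjusted p = 0.370). Akap8 was higher in every KO-labelled array than in every WT array, as were 11.6% of all tested genes. Akap12 had the smallest p but lay at 3.68 to 3.85 in WT and at 4.12 to 4.30 in KO-labelled arrays, above the table median in KO3 alone, so no size is given.

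Of 12 listed genes known to be induced by cAMP, 8 were tested, with 5 differences above 0 and 3 below. Pde4b alone passed the study's threshold, as did 8.3% of all tested genes. Pde4b and Pde4d, both among the 5 above 0, are also members selected with this comparison known. Nothing is therefore read from these counts. The nuclear receptor genes Nr4a1 and Nr4a3, among the 3 below, reached the table median in WT2 alone (4.73 and 4.65). No size is therefore given for them, and their place in the count says little. The phosphatase gene Dusp1 differed by 0.48 and the kinase gene Sik1 by 0.47. Dusp1 and Sik1 passed neither threshold.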
